A study of Rattus norvegicus with 196 samples.

Results

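The medial septum (MS) was examined in 8 of the 196 samples of the series, 4 from rats given fluoxetine (FT) and 4 from control rats (Sham). They are the samples labelled with the region MS, and they carry the replicate numbers 1, 3, 4 and 5 in each group. Fluoxetine is a selective serotonin reuptake inhibitor. FT rats received it at 18 mg/kg body weight per day for 6 weeks from an age of 2 months, and Sham rats of the same age received water over the same time. The animals were male Long-Evans rats with no genetic change, and according to the methods the tissue punches of 10 animals, out of 40 per group, were combined into each sample. The spread between samples is therefore a spread between pools. RNA was sequenced in bulk and reads were counted on 29188 rat transcripts, so fewer cells of a type and less RNA per cell cannot be told apart.

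The medial septum lies in the midline of the basal forebrain and projects to the hippocampus. Its cholinergic neurons, its GABAergic neurons, many of which contain parvalbumin, and its glutamatergic neurons take part in setting the hippocampal theta rhythm. It receives serotonergic fibres from the raphe. The septum also borders the lateral ventricles, where the choroid plexus, an epithelium that secretes cerebrospinal fluid, makes transthyretin in large amounts.

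Between 6356289 and 18452571 reads were counted on transcripts in each MS sample. The Sham samples held 9767935, 6356289, 10641808 and 13853844 reads in replicates 1, 3, 4 and 5, and the FT samples held 13662570, 6744141, 18452571 and 10290322. Both samples of replicate 3 stood apart from the rest. Their 50 most abundant transcripts took 65.2% of reads in Sham and 62.7% in FT, against 26.7% to 42.1% in the other 6 samples, and their TMM normalisation factors were 0.491 and 0.509, against 0.979 to 1.47. In replicate 1, 25.3% of Sham and 21.1% of FT reads fell outside annotated features, against 38.8% to 47.1% in replicates 3, 4 and 5. Expression is given below as TMM-normalised CPM, read counts scaled to a common depth, which allow a comparison of samples for 1 gene but not of genes with each other. Where CPM are summed over a list, a gene's part of the sum describes reads and not its expression against the others. FT and Sham samples that share a number are called a replicate pair.

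The region label was checked against markers. Gene names could be given to 1844 transcripts, so that of 8 listed cholinergic markers only Slc5a7, the choline transporter of cholinergic terminals, could be traced. Its median in Sham was 38.7 CPM in MS, the fifth highest of 25 regions, against 7.13 CPM in the lateral septum (LS) and 21.3 CPM in the bed nucleus of the stria terminalis (BNST). The highest, 90.0 CPM, was in the region labelled PVN. Pvalb, which encodes parvalbumin, had 83.4 CPM in MS, 15.1 CPM in LS and 108 CPM in BNST, and MS ranked 14 of 25 regions for it, as it did for Hcn2, a channel of fast-spiking septal neurons. Gad2, an enzyme of GABA synthesis, had 106 CPM in MS, again the fifth highest, below the 136 CPM of LS, the highest. None of these neuronal markers was highest in MS, so they do not single it out among the regions. Ttr, which encodes transthyretin, had a Sham median of 2909 CPM in MS, close to the 2949 CPM of LS and far above the 92.3 CPM of BNST.

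In MS 30 transcripts differed between FT and Sham, 14 higher and 16 lower in FT, of 14398 that passed the low-count filter (0.208%, with 0.0972% higher and 0.111% lower). To count as a differentially expressed gene (DEG), a transcript had to pass edgeR's quasi-likelihood test with the replicate number as a block (p adjusted by Benjamini-Hochberg, limit 0.1) and the study's own minimum log2 fold-change (log2FC). Errors of log2FC are standard errors (SE). The 12 DEGs that could be named comprised 9 higher in FT (Oxt, Fam189a1, DEPP, Gp1bb, Nrgn, Tesc, Tmem54, Gdf1 and Tnnc2) and 3 lower (Kcnj13, Sostdc1 and Mat2a). All 30 moved the same way in 4 of 4 replicate pairs, as did 13.1% of all tested transcripts upwards and 13.0% downwards. In 15 of the 30, the FT and Sham samples did not overlap, which was true of 2.88% of all tested transcripts. The median log2FC was 1.82 among the 14 higher and -4.08 among the 16 lower DEGs. Many of the lower DEGs had few reads in FT, so the size of their median is imprecise. With at least 1 CPM required in 4 samples, 3 lower calls were left.

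The calls lay close to the threshold. The largest adjusted p among them was 0.0966, and another 28 transcripts with a sufficient fold-change had an adjusted p above 0.1 and at most 0.11. DESeq2 with the same block called 571 transcripts, 379 higher and 192 lower (6.66%, 4.42% and 2.24% of the 8573 to which it gave an adjusted p), and 16 of these were among the 30. It gave no adjusted p to Fam189a1 and DEPP, nor to the unnamed ENSRNOT00000074384 and ENSRNOT00000049569. The 30 calls fell to 2 without replicate 4, to 3 without replicate 5, to 8 when at least 1 CPM was required in 4 samples, and to 0 without the replicate block. Without replicate 4 or 5 none of the 16 lower calls held, and without the block 342 transcripts had an unadjusted p under 0.05.

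**Figure D1:**
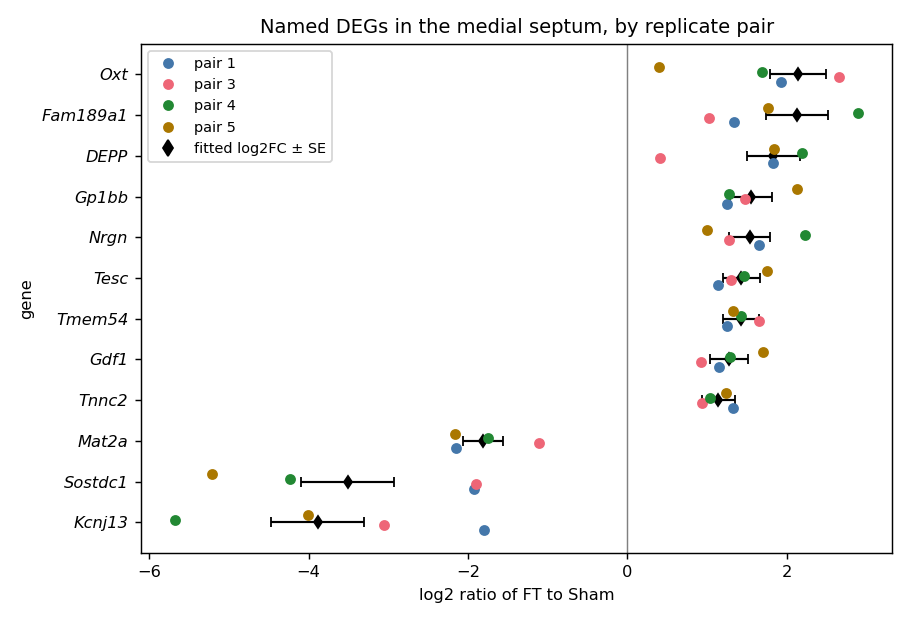
Log2 ratio of FT to Sham (horizontal axis) for each of the 12 named DEGs (vertical axis). Circles are the 4 replicate pairs, computed on CPM with a prior count of 2, and diamonds are the fitted log2FC with its standard error. The 9 genes with higher expression lie right of 0 in every pair, and Kcnj13 and Sostdc1 lie further left in pairs 4 and 5 than in pair 1.

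The largest falls among named DEGs belonged to markers of the choroid plexus. Of 8 listed markers 3 could be traced (Ttr, Kcnj13 and Sostdc1) and none of these was at 0 in any sample. edgeR called 2 of them lower and DESeq2 all 3, and their median log2FC was -3.86, against -0.03 over all tested transcripts. Mfrp, a membrane protein related to frizzled receptors, was not on the marker list, but its Sham medians followed the mean of these markers across the 24 other regions (Pearson's r = 0.99 on log2(CPM + 1), over regions that share the pools of animals).

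The promoters of Kcnj13 and Mfrp are shown as 1 window without and 1 with a match to the motif described here, chosen after the matches were seen. Ttr, whose groups did not overlap either, had no match. They are RefSeq sequences from the GRCr8 build, 250 bases before to 50 after the start of the gene, at chr9:95518937-95519236 on the minus strand and chr8:53342284-53342583 on the plus strand. Capitals mark TAATCC or its reverse complement GGATTA, the core recognised by OTX2, a homeodomain factor of the developing choroid plexus.
Kcnj13: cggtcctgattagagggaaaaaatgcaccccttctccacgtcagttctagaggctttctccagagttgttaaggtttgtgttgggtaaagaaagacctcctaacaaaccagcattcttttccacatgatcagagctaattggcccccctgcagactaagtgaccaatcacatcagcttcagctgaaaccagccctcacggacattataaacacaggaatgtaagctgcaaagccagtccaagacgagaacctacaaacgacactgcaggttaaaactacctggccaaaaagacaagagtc
Mfrp: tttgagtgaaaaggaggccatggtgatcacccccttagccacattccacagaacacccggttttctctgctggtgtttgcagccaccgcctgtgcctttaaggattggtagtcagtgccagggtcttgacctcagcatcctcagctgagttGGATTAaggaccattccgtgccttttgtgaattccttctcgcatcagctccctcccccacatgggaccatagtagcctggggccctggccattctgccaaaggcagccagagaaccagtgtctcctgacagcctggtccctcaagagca
One match lies 99 bases before the start of Mfrp and none in the Kcnj13 window. Either strand of these letters occurs in 7.17% of all 33469 promoters of this length. Of the 12 named DEGs, Ttr and Mfrp, 11 had a promoter in the table, and Mfrp was the 1 with a match.

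Kcnj13 (ENSRNOT00000021507) encodes the inwardly rectifying potassium channel Kir7.1 of the choroid plexus epithelium. It had 8.90, 8.33, 69.8 and 36.2 CPM in Sham replicates 1, 3, 4 and 5, and 2.45, 0.87, 1.22 and 2.12 CPM in the FT samples. Every FT sample lay below every Sham sample, and the Sham samples of replicates 4 and 5 lay well above the other 2. The mean was 30.8 ± 29.1 CPM in Sham and 1.67 ± 0.741 CPM in FT (SD, n = 4), and the log2FC -3.88 (SE 0.58, edgeR adjusted p = 0.0514).

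Sostdc1 (ENSRNOT00000008106) encodes a secreted antagonist of BMP and Wnt signalling. Its expression was 9.52, 8.01, 20.5 and 18.9 CPM in Sham and 2.39, 2.04, 0.94 and 0.36 CPM in FT. The groups did not overlap, and the FT samples of replicates 4 and 5 were the lowest. The mean was 14.2 ± 6.37 CPM in Sham and 1.43 ± 0.942 CPM in FT (SD, n = 4), and the log2FC -3.51 (SE 0.58, edgeR adjusted p = 0.0669).

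Ttr (ENSRNOT00000022113), the carrier of thyroxine and retinol-binding protein, made up most of the summed CPM of the markers. It had 1133, 3573, 5302 and 2851 CPM in Sham and 479, 940, 40.4 and 64.6 CPM in FT. All FT samples lay below all Sham samples. The mean was 3215 ± 1728 CPM in Sham and 381 ± 424 CPM in FT (SD, n = 4). The log2FC of -3.86 (SE 0.95) was not called by edgeR (adjusted p = 0.172), while DESeq2 called it (adjusted p = 0.0230). Mfrp (ENSRNOT00000059813) had 11.6, 11.5, 17.3 and 20.1 CPM in Sham and 4.39, 4.67, 0.71 and 1.39 CPM in FT, without overlap, with a log2FC of -2.80 (SE 0.55, edgeR adjusted p = 0.102).

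For these 4 genes FT and Sham differed less in pairs 1 and 3 than in pairs 4 and 5. For Ttr the log2 ratio was -1.24 and -1.93 in pairs 1 and 3 and -7.03 and -5.46 in pairs 4 and 5. The summed level of the 3 markers was 1151, 3589, 5393 and 2906 CPM in Sham replicates 1, 3, 4 and 5, and 484, 943, 42.6 and 67.1 CPM in the FT samples. This sum, nearly all of it Ttr, was lowest in the FT samples of pairs 4 and 5 and highest in Sham replicate 4, while Kcnj13 alone was lowest in FT replicate 3. Of 9 markers of ependymal cells, which line the ventricles, 5 could be traced and tested, 0 were called by edgeR or DESeq2, all 5 had a negative log2FC, and the median was -0.30. Their summed level was 85.3, 59.3, 182 and 181 CPM in Sham and 59.0, 44.6, 180 and 128 CPM in FT, with the largest part of the sum from Ccdc39.

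**Figure D2:**
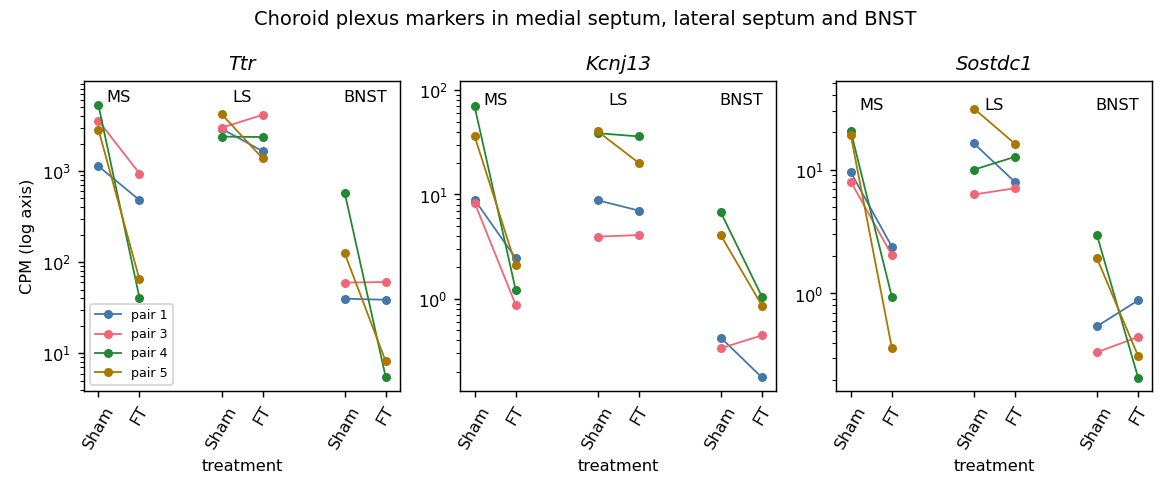
CPM on a log axis for Ttr, Kcnj13 and Sostdc1 in Sham and FT samples of MS, LS and BNST, with a line for each replicate pair. In MS all 4 lines fall for each gene, in LS the FT and Sham values overlap, and in BNST the lines of pairs 4 and 5 fall. MS values were scaled over the MS samples, and LS and BNST values over all regions, so MS levels are not on the scale of the others.

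Most of the DEGs without a name shared the regional profile of these markers. Of the 16 DEGs lower in FT, 12 had an r of at least 0.8 with the mean Sham profile of Ttr, Kcnj13 and Sostdc1 over the 24 other regions, and 10 of these remained when Kcnj13 and Sostdc1, which help to define that mean, were left aside. This held for 0.292% of the 14397 tested transcripts with regional levels and for 0 of the 14 DEGs higher in FT. These r values are a description, since the regions share pools of animals. Many of the unnamed falls had few reads in FT and passed the low-count filter through the Sham samples, where they were high. With at least 1 CPM in 4 samples 3 lower calls were left. The tally of 12 therefore describes which transcripts were called and is no test of a shared source. The 2 unnamed falls with the lowest p were ENSRNOT00000074384 and ENSRNOT00000049569. ENSRNOT00000074384 had 28, 6, 198 and 129 reads in Sham and 5, 0, 5 and 3 reads in FT (log2FC -4.85, standard error 0.58, adjusted p = 0.0147 from edgeR). ENSRNOT00000049569 had 10, 6, 164 and 92 reads in Sham and 1, 1, 6 and 3 reads in FT (log2FC -4.67, standard error 0.56, adjusted p = 0.0147 from edgeR). In both, the FT samples held 6 reads or fewer and the groups did not overlap, and DESeq2 gave neither an adjusted p. The amount of choroid plexus tissue in the punches, and its part in these falls, was not tested.

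Mat2a (ENSRNOT00000018170) encodes the catalytic subunit of the enzyme that makes S-adenosylmethionine, the methyl donor of the cell. It had 25.2, 74.4, 85.4 and 86.8 CPM in Sham replicates 1, 3, 4 and 5, and 5.55, 34.4, 25.3 and 19.3 CPM in FT. The FT sample of replicate 3 lay above the Sham sample of replicate 1, so the groups overlapped, but each pair fell by a log2 ratio between -1.11 and -2.16. The mean was 67.9 ± 29.0 CPM in Sham and 21.1 ± 12.1 CPM in FT (SD, n = 4), and the log2FC -1.81 (SE 0.25, edgeR adjusted p = 0.0373). Unlike the choroid plexus markers, Mat2a had an r of -0.42 with their regional profile.

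Among the named DEGs higher in FT, Nrgn, Tesc and Tnnc2 encode proteins that bind calcium or calmodulin. Nrgn (ENSRNOT00000014404) encodes neurogranin, a postsynaptic calmodulin-binding protein of forebrain neurons. It had 99.2, 337, 13.2 and 43.3 CPM in Sham and 313, 815, 62.6 and 86.8 CPM in FT. Samples of replicate 3 were highest in both groups, and the groups overlapped. The log2FC was 1.54 (SE 0.26, edgeR adjusted p = 0.0694).

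Tesc (ENSRNOT00000001490) encodes tescalcin, an EF-hand calcium-binding protein, and had 15.8, 22.4, 5.64 and 5.13 CPM in Sham and 35.1, 55.4, 15.9 and 17.7 CPM in FT (log2FC 1.43, standard error 0.23, adjusted p = 0.0610 from edgeR). Tnnc2 (ENSRNOT00000020348), the calcium-binding troponin C of fast skeletal muscle, had 28.2, 22.4, 29.3 and 30.6 CPM in Sham and 70.6, 43.2, 60.2 and 72.5 CPM in FT (log2FC 1.14, standard error 0.21, adjusted p = 0.0925 from edgeR). For Tnnc2 all FT samples lay above all Sham samples, and the 4 Sham samples were close to each other. For Tesc the groups overlapped, since replicates 1 and 3 were higher than replicates 4 and 5 in both groups.

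Oxt (ENSRNOT00000028829) encodes the peptide oxytocin, made by neurons of the hypothalamus. In Sham 8, 121, 4 and 6 reads were counted in replicates 1, 3, 4 and 5, and in FT 56, 845, 32 and 6. In CPM these were 0.84, 38.8, 0.28 and 0.30 in Sham and 3.62, 246, 1.26 and 0.44 in FT. Replicate 3 held most of the reads of both groups, and in pair 5 the read numbers were equal and the CPM differed through depth. The log2FC was 2.14 (SE 0.35, edgeR adjusted p = 0.0610), without replicate 3 it was 1.68 (edgeR adjusted p = 0.464), and without replicate 4 it was 2.13 (edgeR adjusted p = 0.436). In Sham its MS median of 0.53 CPM was the seventh highest of 25 regions, below the 8.92 CPM of the ventromedial hypothalamus.

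Fam189a1 (ENSRNOT00000031488) had 0.42, 0.64, 2.75 and 5.72 CPM in Sham and 1.29, 1.46, 21.5 and 19.8 CPM in FT, with a log2FC of 2.13 (SE 0.39, edgeR adjusted p = 0.0925). DEPP (ENSRNOT00000018133), a target of FOXO factors named for its induction by progesterone, had 5.65, 1.28, 2.05 and 3.50 CPM in Sham and 20.5, 1.75, 9.90 and 12.9 CPM in FT. The log2FC of DEPP reached 1.84 (SE 0.34, edgeR adjusted p = 0.0925), with a small difference in pair 3, where the libraries held 4 and 6 reads. In both genes FT was higher in every pair while the groups overlapped.

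Gp1bb, a subunit of the platelet receptor for von Willebrand factor, had a log2FC of 1.56 (SE 0.27, edgeR adjusted p = 0.0748) with no overlap between groups. Tmem54, a membrane protein gene, had 1.43 (SE 0.22, edgeR adjusted p = 0.0610), and Gdf1, of the TGF-beta family, 1.28 (SE 0.24, edgeR adjusted p = 0.0966). Gdf1 was highest in replicate 3 of both groups, at 48.7 CPM in Sham and 92.5 CPM in FT, against 2.32 to 8.48 CPM and 7.88 to 19.1 CPM in the others. The 2 largest rises of all had no name. ENSRNOT00000075747 had 7, 352, 1 and 24 reads in Sham and 155, 3193, 83 and 160 reads in FT (log2FC 3.47, standard error 0.31, adjusted p = 0.00327 from edgeR). ENSRNOT00000074557 had 7, 365, 0 and 18 reads in Sham and 95, 2950, 70 and 108 reads in FT (log2FC 3.25, standard error 0.38, adjusted p = 0.0147 from edgeR). Both were highest in replicate 3 of each group, and whether they share reads was not tested. They were the 2 calls that held without replicate 4. Without replicate 5 these 2 and Oxt held.

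Among named genes that were not DEGs, the lowest p values belonged to genes with an adjusted p between 0.1011 and 0.140 in edgeR. Those with higher values in FT in 4 of 4 pairs included the peptide precursors Cartpt (log2FC 1.28), Sst (1.14) and Pcsk1n (1.46), the kinase genes Itpka (1.31) and Mast3 (1.07), the calcium-binding protein gene Necab2 (1.09), and Rps2 (1.11), Fdx1l (1.23), Ttc9b (1.37) and Hist2h2aa3 (1.38). Those with lower values in 4 of 4 pairs, besides Mfrp, were Sh3bgrl (-1.13), Trove2 (-1.40), Ogn (-1.44), ZFP87 (-1.66), Sypl1 (-1.54), Napb (-1.31), Pls1 (-1.37), Gabrb2 (-1.41) and Slc17a6 (-1.16). Napb encodes the beta form of the SNARE adaptor SNAP, Gabrb2 a GABA-A receptor subunit and Slc17a6 the vesicular glutamate transporter VGLUT2. DESeq2 called all of these genes in the same direction, Slc17a6 for example with an adjusted p of 0.00646, except Gabrb2 and ZFP87, to which it gave no adjusted p. Among named transcripts, its 5 largest rises with agreement of all pairs were Oxt, RGD1566239, Rprml, Angptl6 and PCSK1N. The last is a transcript whose label differs from Pcsk1n only in the case of its letters.

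Neurons of the medial septum were examined through their own markers. Slc5a7 had 126, 57.7, 27.4 and 19.5 CPM in Sham and 39.8, 19.8, 22.2 and 21.2 CPM in FT. FT was lower in 3 of 4 pairs and slightly higher in pair 5, with a log2FC of -0.84 (SE 0.32, edgeR adjusted p = 0.280). The difference therefore came mainly from pairs 1 and 3, with log2 ratios of -1.66 and -1.53. Slc17a6 had 75.3, 34.6, 151 and 72.2 CPM in Sham and 25.2, 19.5, 49.2 and 48.9 CPM in FT (log2FC -1.16, standard error 0.25, adjusted p = 0.140 from edgeR), below Sham in 4 of 4 pairs.

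Of 4 traced GABAergic and fast-spiking markers 0 were called by edgeR or DESeq2. Gad2 had a log2FC of -0.29 (SE 0.21), Pvalb -0.13 (SE 0.33), Hcn2, a channel of the pacemaker current, -0.58 (SE 0.41), and Nefh, the heavy neurofilament, 0.40 (SE 0.22), with adjusted p between 0.402 and 0.871 in edgeR. The sign for Pvalb changed without replicate 4, and that for Hcn2 without the replicate block. Htr1a, the autoreceptor and postsynaptic receptor for serotonin, was the 1 traced gene of the 18 on the serotonin list. It had 1.26, 7.37, 0.28 and 1.92 CPM in Sham and 1.74, 5.83, 0.39 and 0.22 CPM in FT, with a log2FC of -0.53 (SE 0.58, edgeR adjusted p = 0.670) in which the pairs differed in sign.

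Groups of genes for peptides and organelles were described by their medians, beside -0.03 over all tested transcripts and 0.13 over the 1836 named ones. All list members are named transcripts. DESeq2 called 439 of the 1836 named ones that passed the edgeR filter. This is a far larger share than its 6.66% of the 8573 transcripts to which it gave an adjusted p, although the 2 bases differ. The DESeq2 counts of the lists therefore do not by themselves set a list apart. Of 14 tested neuropeptide and precursor transcripts, 13 had a positive log2FC, Oxt was called by edgeR, and DESeq2 called 7 higher and 0 lower, with a median of 0.76. The list also held Cck (log2FC 1.47, edgeR adjusted p = 0.172) and Vgf (0.96, edgeR adjusted p = 0.219), neither called by edgeR. Their summed level in replicate 3 was 2002 CPM in Sham and 4400.5 CPM in FT, above 266 to 638 CPM and 443 to 999.8 CPM in the other pairs. PENK gave the largest part of this sum over all 8 samples, but in FT replicate 3 Pcsk1n gave 1464 CPM of it. Positive values were held by 48.1% of all tested and 56.0% of named transcripts. Mitochondrial ribosomal proteins had positive values in 22 of 25 (median 0.52) and nuclear-encoded respiratory chain subunits in 24 of 32 (median 0.39), with 0 called by edgeR in either list. DESeq2 called 4 of the former higher and 0 lower, and 4 of the latter higher and 1 lower. Their medians were 0.26 and 0.16 in pairs 1 and 3, and 0.70 and 0.61 in pairs 4 and 5. The 8 mitochondrially encoded transcripts all had negative values (median -0.54), 0 of them called by either tool, with a median of -1.13 in pairs 1 and 3 and -0.03 in pairs 4 and 5.

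Glial and vascular markers showed no common direction. Of 11 oligodendrocyte and myelin markers 6 had a positive log2FC, with 0 called by edgeR and 2 higher and 4 lower by DESeq2 (median 0.01). Sox10, a transcription factor of the oligodendrocyte lineage, had 0.91, whereas Ermn and Ugt8, genes of the myelin sheath, had -1.21 and -0.92. Of 5 astrocyte markers Slc7a10, a transporter of small neutral amino acids, had 1.07 and Kcnj10, the potassium channel Kir4.1, -1.73, and edgeR called neither. Of 4 microglial markers C1qa had 0.75 and the other 3 had negative values, and of 4 endothelial and mural markers 3 were positive. Red blood cell markers had a median of -0.33 over 2 transcripts. In these 4 lists edgeR called 0, while DESeq2 called 1 astrocyte and 1 microglial marker higher and 1 endothelial or mural marker lower.

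Markers of regions next to MS were compared as well. The 4 striatal markers (DRD2, Adora2a, Ppp1r1b and PENK) had log2FC between 0.39 and 0.77, none of them called by either tool. In Sham the median of Adora2a, an adenosine receptor of striatal neurons, was 9.77 CPM in MS and 122 CPM in the core of the nucleus accumbens. Of the 10 lateral septal and preoptic markers 4 were tested, with a median of 0.84, and edgeR called Oxt and DESeq2 called 2, all higher. Among genes of neuronal signalling, edgeR called 0 of 5 GABA-A receptor subunits (median -0.62), 0 of 7 glutamate receptors (-0.03), 0 of 17 ion channels (-0.39) and 0 of 10 vesicle release genes (-0.35), while DESeq2 called 1, 0, 1 and 2 of them lower and 1 ion channel higher. Ubiquitin and proteasome genes had a median of 0.53 over 18 transcripts (0 called by edgeR, 6 higher and 1 lower by DESeq2), and cytosolic ribosomal proteins -0.04 over 30 (0 by edgeR, 5 higher and 1 lower by DESeq2). Fos, an immediate early gene, had 0.98 and was called by DESeq2 but not edgeR. The clock output gene Dbp had 0.88 and was not called by edgeR. The genes that the study names for chromatin (8 traced) and as shared by most regions (10 traced) had medians of 0.43 and 0.88, but the study chose them on these samples and they are not independent evidence.

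**Figure D3:**
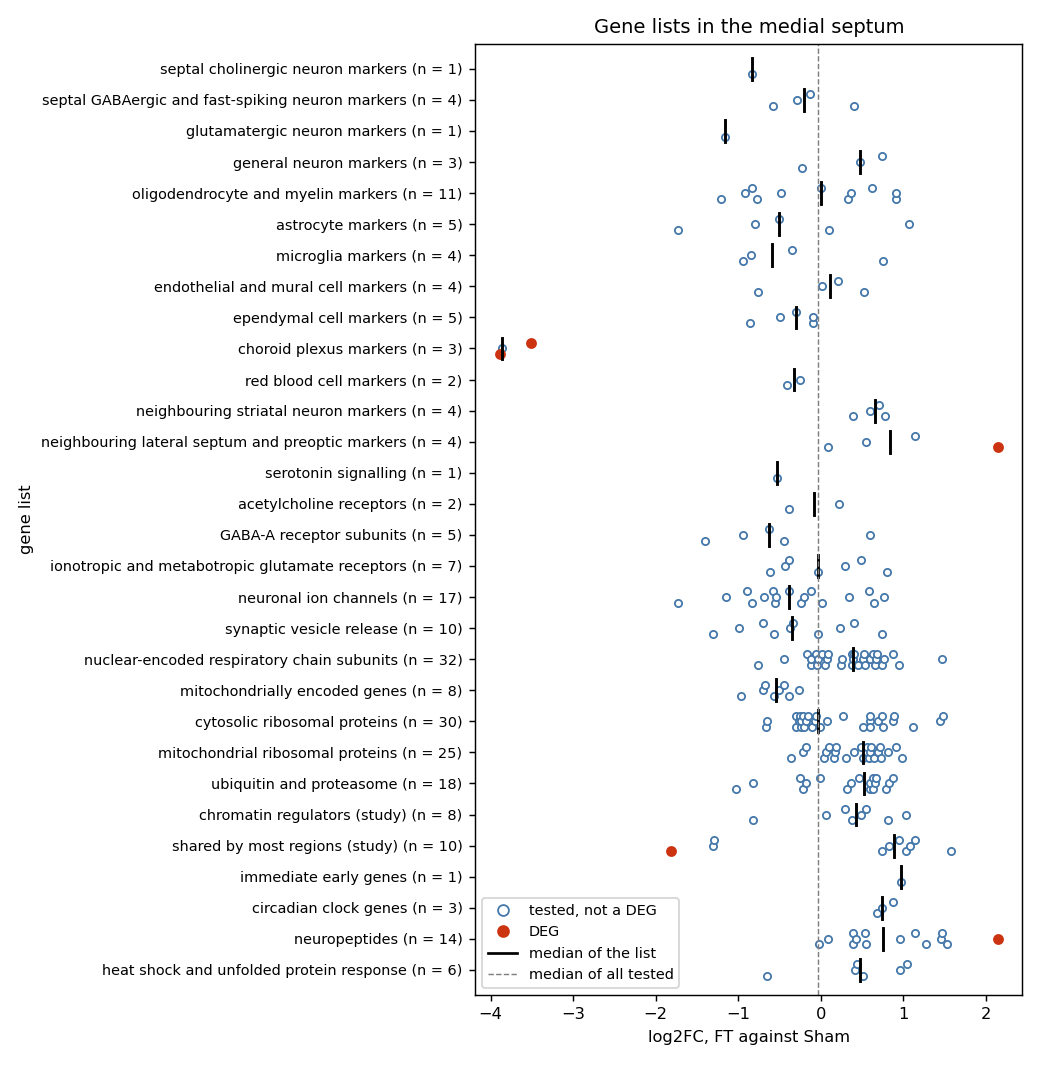
Fitted log2FC (horizontal axis) of every tested transcript in each gene list (vertical axis), with n the number tested. Filled circles are DEGs in edgeR, bars are list medians and the dashed line is the median of all tested transcripts. The choroid plexus markers lie near -4 and apart from every other list.

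Responses of MS were compared with those of its neighbours LS and BNST through the region by treatment interaction in edgeR, in which every replicate pair formed its own block. No transcript was called for LS (0% of 15157, 257 with an unadjusted p under 0.05) or for BNST (0% of 15190, 332 with an unadjusted p under 0.05). DESeq2 called 5 against LS, each with a lower log2FC in MS, among them Kcnj13 and Sostdc1, and 0 against BNST. In edgeR the Kcnj13 response was -0.42 in LS, and the log2FC in MS minus that in LS was -3.44 (SE 0.67, unadjusted p = 9.8e-05, edgeR adjusted p = 0.503). The values in LS were 8.80, 3.94, 38.7 and 40.2 CPM in Sham and 7.01, 4.08, 36.0 and 20.1 CPM in FT, so that the LS groups overlapped. In BNST, where Sham levels were lower at 0.42, 0.34, 6.72 and 4.05 CPM, FT samples had 0.18, 0.45, 1.05 and 0.86 CPM, and the log2FC in MS minus that in BNST was -1.79 (SE 0.88, edgeR adjusted p = 1.00).

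For Oxt the log2FC in MS exceeded that in BNST by 2.35 (SE 0.46, unadjusted p = 2.4e-04, edgeR adjusted p = 1.00) and that in LS by 2.49 (SE 1.16, edgeR adjusted p = 1.00). Mat2a had nearly the same response in LS (-1.78) as in MS, with a difference of 0.02 (SE 0.60), and -0.51 in BNST. With the replicate block shared by both regions, edgeR called 84 differences between MS and BNST (36 higher and 48 lower in MS) and 0 between MS and LS, where 542 had an unadjusted p under 0.05.

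Each named DEG was also followed through the edgeR fits of the other 24 regions, which used the same pools of animals. Kcnj13, tested in all 24, and Sostdc1, tested in 15 of them, were called by edgeR in none of those. Both carry names from the study's list of transcripts altered in 2 or more regions, so this absence holds for the edgeR fits only. The 1 call of Ttr in edgeR was in the arcuate nucleus, fitted from 2 pairs, where it was higher in FT (log2FC 1.96). The log2FC of Ttr was negative in 16 of 25 regions and ranged from -3.86 in MS to 3.35 in the region labelled Nts, whose fit included a Sham library of 4586 reads (replicate 3). Large falls of Ttr outside MS, not called by edgeR, included -3.57 in the mediodorsal thalamus and -2.68 in the shell of the nucleus accumbens. Sostdc1 had -3.01 in raphe and -2.58 in the dorsal dentate gyrus, where Kcnj13 had -2.43, and these were not called either. The log2FC of Kcnj13 was negative in 20 of 25 regions and that of Sostdc1 in 11 of 16, each with the lowest value in MS. DEPP was called in 5 other regions, Mat2a and Gp1bb in 4 and Fam189a1 in 3, with Nts among those of DEPP and Fam189a1. For each of these genes the calls included the arcuate nucleus and the preoptic area, both fitted from 2 pairs. The cingulate cortex, fitted without replicate 1, was among those of DEPP and Mat2a. The remaining calls were in raphe for DEPP, Mat2a and Gp1bb, and in the core of the nucleus accumbens for Gp1bb. Fam189a1, DEPP and Gp1bb had a positive log2FC in 24 of 24 other regions, and Mat2a a negative one in 23 of 24. Nrgn and Tnnc2 were called in MS and raphe, and Oxt, tested in 18 other regions, in MS and the arcuate nucleus.

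**Figure D4:**
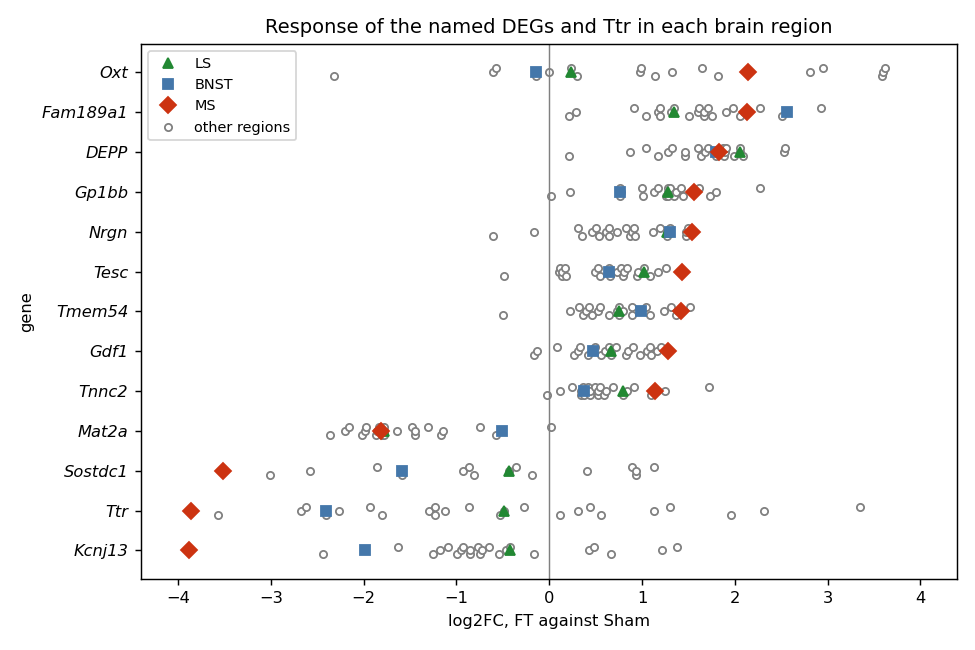
Fitted log2FC (horizontal axis) of the 12 named DEGs and Ttr (vertical axis) in each region where the transcript was tested. Diamonds are MS, triangles LS, squares BNST and open circles the other regions, with the cingulate cortex fitted without replicate 1 the arcuate nucleus and preoptic area from 2 pairs, and Nts with a Sham library of 4586 reads. MS has the lowest value of Kcnj13, Ttr and Sostdc1, and lies within the range of other regions for Mat2a and DEPP.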

How the data were processed

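The authors sequenced pooled punches as 76 bp paired reads, aligned them with STAR to rn5 and counted reads with HTSeq. The kit named is for total RNA, while the labels give polyA RNA. Versions and strand setting are not given in the sources used here. The deposited counts are raw, per Ensembl transcript. The last 5 lines of each file, which name no transcript, were dropped. Names came from a supplementary list of 1989 transcripts altered in 2 or more regions, of which 1844 carry a usable name, so named transcripts are not an independent sample.

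Counts were tested with edgeR 4.0.16 in R 4.3.3 (TMM, filterByExpr with a minimum count of 10 and total of 15, replicate block, quasi-likelihood test). The standard error is the size of the log2FC divided by the square root of F. DESeq2 1.42.0 was the alternative. Per the methods, both treatments of a replicate went through processing together. Deviations from the group means of same-numbered samples correlated across transcripts at 0.553, 0.839, 0.752 and 0.527. The log2 ratios of FT to Sham correlated at 0.481 between pairs 1 and 3 and at 0.386 between pairs 4 and 5. Between a pair of the first set and a pair of the second, r was only -0.0106 to 0.193. A pooled log2FC therefore averages responses that these 2 sets of pairs shared little. Pair ratios used a prior count of 2. p-values measure the spread between pools. Low counts limit precision.

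Genes were named by rule. The rule took the named DEGs, the 10 uncalled genes with the lowest p in each direction and all pairs agreeing, markers of septal neurons, serotonin and choroid plexus, the 5 largest DESeq2 calls each way and at most 2 unnamed transcripts each way. Other list members were named after values had been seen. The comparison, lists and rule were chosen with earlier results of these data known. Code was tested on simulated data. There the MS edgeR fit called 70 of 100 transcripts changed 3-fold, 2 of 100 changed 1.5-fold and 20 unchanged ones. The MS DESeq2 fit called 69, 3 and 19 of these kinds. In both, unchanged ones were a larger share of the calls than the limit of 0.1. The 2 tools were thus alike on simulated counts, while on the real counts edgeR called 30 transcripts and DESeq2 571. The DESeq2 fit of MS against LS called 47 of 100 changed 3-fold, 1 of 100 changed 1.5-fold and 33 unchanged ones. Figures used Python 3.11.15 and matplotlib 3.10.9.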

Additional observations from a re-analysis of the deposited data

Results flagged for a closer look

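In groups of 4 samples, 25 of the 102 groups tested held a sample far from the other 3, by Dixon's test of its gap to the nearest other sample. For independent, normally distributed values the test gives about 1 in 20. Most groups here were untransformed CPM of selected genes in the same samples, so that rate is not their chance rate. Of 94 groups of gene levels 23 were singled out, and in 21 of these the sample was replicate 3.

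Several peptide and precursor genes stood out in that replicate, with Oxt at 38.8 CPM in Sham and 246 CPM in FT, and, in FT only, Cartpt at 231 CPM and Sst at 420 CPM. The transcript labelled Pcsk1n had 509 CPM in Sham and 1464 CPM in FT, and that labelled PCSK1N 243 CPM in Sham and 873 CPM in FT. Gdf1 had 48.7 CPM in Sham and 92.5 CPM in FT, Hist2h2aa3 had 39.8 CPM in Sham and 112 CPM in FT, and Hcn2 had 27.6 CPM in Sham and 39.7 CPM in FT. RGD1566239 had 81.4 CPM in Sham and 172 CPM in FT, and Rprml had 37.6 CPM in FT. The unnamed ENSRNOT00000075747 had 113 CPM in Sham and 931 CPM in FT, and ENSRNOT00000074557 had 117 CPM in Sham and 860 CPM in FT. The share of reads in the 50 most abundant transcripts was 62.7% in FT replicate 3. One unnamed transcript, ENSRNOT00000074325, took 22.1% of the reads of that sample and 6.15% of those of Sham replicate 3, against 0.152% to 1.00% elsewhere. Another, ENSRNOT00000069133, took 36.6% of Sham replicate 3 and 19.6% of FT replicate 3, 19.2% and 7.66% in pair 1, and 6.57% to 8.11% in pairs 4 and 5. The part of these shares in the levels above was not tested.

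In replicate 1 of FT, Slc5a7 was high at 39.8 CPM, Gabrb2 was low at 1.16 CPM, and the share of reads outside annotated features was low at 21.1%.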

How the results depend on the processing

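Of 30 DEGs in MS, the number became 0 with no replicate block, 51 with median-ratio size factors, 852 without a low-count filter, 8 with at least 1 CPM in 4 samples, 6 at an adjusted p of 0.05, 52 with robust dispersion and 571 with DESeq2. Leaving out 1 replicate gave 2 to 44. Replicates 1 and 3 alone gave 4693 and replicates 4 and 5 alone gave 933, sharing 20 and 29 of the 30. The share of calls that were higher was 46.7%, and 61.2% without the filter, 62.5% with at least 1 CPM, 37.5% with upper-quartile factors and 66.4% with DESeq2. It was 29.6% without replicate 3, and 100% of 2 calls without replicate 4 and of 3 without replicate 5, where no lower call was left. The difference in response between MS and BNST, with 0 calls, had 84 with the replicate block shared by both regions and 2 without the filter. That between MS and LS, also with 0, had 13 without the filter and 5 with DESeq2. The cause of these shifts was not tested.

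Of the 16 DEGs given with values, 14 were lost without replicate 4, 13 without replicate 5, 6 without replicate 3 and 3 without replicate 1, and none changed sign in the alternatives in which it was tested (13 of the 16 with replicates 1 and 3 alone, 14 with no replicate block or at least 1 CPM, and 15 with replicates 4 and 5 alone). The log2FC of Pvalb was 0.30 without replicate 4 (range -0.46 to 0.30 over left-out replicates) and 0.03 with replicates 1 and 3. That of Hcn2 was 0.13 with no replicate block and 0.37 with replicates 1 and 3. That of Htr1a was 0.15 without replicate 5 (range -0.93 to 0.15) and 0.02 with replicates 1 and 3. With 4 pools per group and transcripts of few reads, sizes of change in the lowest genes are imprecise.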
